A study of Mus musculus with 6 samples.

Results

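The mitochondrial ribosomal protein genes are the 76 genes whose symbol begins with Mrpl or Mrps and a number, out of 23235 genes listed in each of 2 deposited expression tables. They were chosen by symbol alone, and 47 carry the large-subunit prefix (Mrpl) and 29 the small-subunit prefix (Mrps). All 76 were tested by the authors in both tables, and none was dropped by a filter on low values.

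The study sequenced RNA libraries built with an Illumina TruSeq kit from primary cortical and hippocampal neurons of mouse embryos at embryonic day 15, kept in culture for 17 days. Its stated question was whether HDAC2, a histone deacetylase, and Sp3, a transcription factor that binds GC-rich promoter sites, act together on a set of genes. Every group received 1 uM AraC, a drug that kills dividing cells, on day 5 and, on day 12, a lentivirus that expresses short hairpin RNA. There were 3 groups of 2 libraries: control, HDAC2 knockdown and Sp3 knockdown. The sources used here do not give the control hairpin, the hairpin sequences or the mouse strain. Nor do they say whether each library is a separate culture, and the authors' p-values may then measure technical spread only.

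The mitochondrial ribosome makes the few respiratory-chain proteins that mitochondrial DNA encodes. Its ribosomal RNAs come from mitochondrial DNA, but all of its proteins are encoded in the nucleus, made on cytosolic ribosomes and imported. The small subunit holds the messenger RNA and the decoding centre, and the large subunit forms peptide bonds and releases the growing chain at the inner membrane. Some of its proteins have bacterial counterparts of the same number and others are found only in mitochondria. Neurons depend heavily on respiration, and inherited defects in several of these proteins cause respiratory-chain disease in humans. The symbols follow an older naming: Mrps18a and Mrps30 have since been placed in the large subunit, and Mrps36 has since been assigned to the oxoglutarate dehydrogenase complex.

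Each table gives 1 FPKM (fragments scaled by transcript length and by the number of mapped fragments) per group and no value per library, so no spread over libraries can be shown. Depth per library is unknown. The error given here is the standard error implied by the authors' test, the log2 fold change divided by their statistic. A gene is called where the authors' q-value, their p-value adjusted over many genes, is under 0.05. Because the median gene itself moved by 0.32 on the log2 scale in HDAC2 knockdown and by -0.13 in Sp3 knockdown, each fold change is also given centred, that is with that median subtracted, with a normal p adjusted over all tested genes by the Benjamini-Hochberg method. Both comparisons use the same control values.

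The targeted transcripts went down in their own knockdown: the authors' deposited table lists Hdac2 at 49.4 FPKM in control and 12.3 FPKM in HDAC2 knockdown, and Sp3 at 15.5 FPKM in control and 5.82 FPKM in Sp3 knockdown. The authors' deposited tables put Sp3 at 26.7 FPKM in HDAC2 knockdown and Hdac2 at 38.8 FPKM in Sp3 knockdown. Neuron markers (7 genes) summed to 922, 970 and 1131 FPKM in control, HDAC2 and Sp3 knockdown. None of the 7 was called in HDAC2 knockdown, and in Sp3 knockdown Nefl, Stmn2 and Snap25 were called higher and Rbfox3 and Syn1 lower. Astrocyte markers (6 genes) summed to 404, 1316 and 402 FPKM, and 4 of them were called higher in HDAC2 knockdown. In Sp3 knockdown 2 of the 6, Gfap and S100b, were called lower, with log2 fold changes of -0.87 and -0.95 by the authors' deposited table. Gfap and S100b stayed lower after centring, at -0.73 and -0.82. Aqp4 and Aldh1l1 were then called higher, at 0.39 and 0.31, so the astrocyte markers did not move in 1 direction. Oligodendrocyte-lineage markers (7 genes) summed to 69.6, 199 and 34.8 FPKM, with 6 of 7 called higher in HDAC2 knockdown and 4 of 6 tested called lower in Sp3 knockdown. Of the microglia markers 1 of 5 was tested, and Tmem119 is listed at 0, while none of 4 endothelial markers was tested. Neuron markers were thus high in every group, and both neuron and glial markers moved between groups. Their part in the results below was not tested. In bulk RNA, fewer cells of a type and less RNA per cell cannot be told apart.

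In control neurons the mitochondrial ribosomal protein genes had a median of 16.7 FPKM, at the 66.5th percentile of all tested genes, whose median was 9.79 FPKM. FPKM is scaled to transcript length, so levels can be set side by side between genes. The range was 13.9-fold, although the proteins are assembled into 1 particle. In the large subunit the authors' deposited table puts Mrpl20 highest at 53.7 FPKM, followed by Mrpl52 at 48.8 FPKM, Mrpl33 at 48.1 FPKM and Mrpl30 at 37.5 FPKM. The lowest large-subunit genes there were Mrpl19 at 3.87 FPKM, Mrpl35 at 5.66 FPKM and Mrpl17 at 5.99 FPKM. In the small subunit the authors' deposited table puts Mrps21 highest at 52.7 FPKM, then Mrps18a at 39.9 FPKM, Mrps33 at 34.9 FPKM and Mrps26 at 33.1 FPKM. The lowest small-subunit genes there were Mrps10 at 6.03 FPKM, Mrps9 at 6.18 FPKM and Mrps27, a protein of the pentatricopeptide repeat family, at 7.29 FPKM. With 1 value per group, which neighbours in these orders differ beyond their spread could not be determined.

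Subunit medians were close in control, 17.4 FPKM for the large and 15.7 FPKM for the small. HDAC2 knockdown had medians of 19.3 and 17.8 FPKM, and Sp3 knockdown 13.8 and 14.99 FPKM. Over all 76 genes the HDAC2 knockdown range ran from 5.89 FPKM (Mrpl19) to 79.3 FPKM (Mrpl33), and the Sp3 knockdown range from 4.14 FPKM (Mrpl17) to 60.9 FPKM (Mrpl33).

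**Figure D1:**
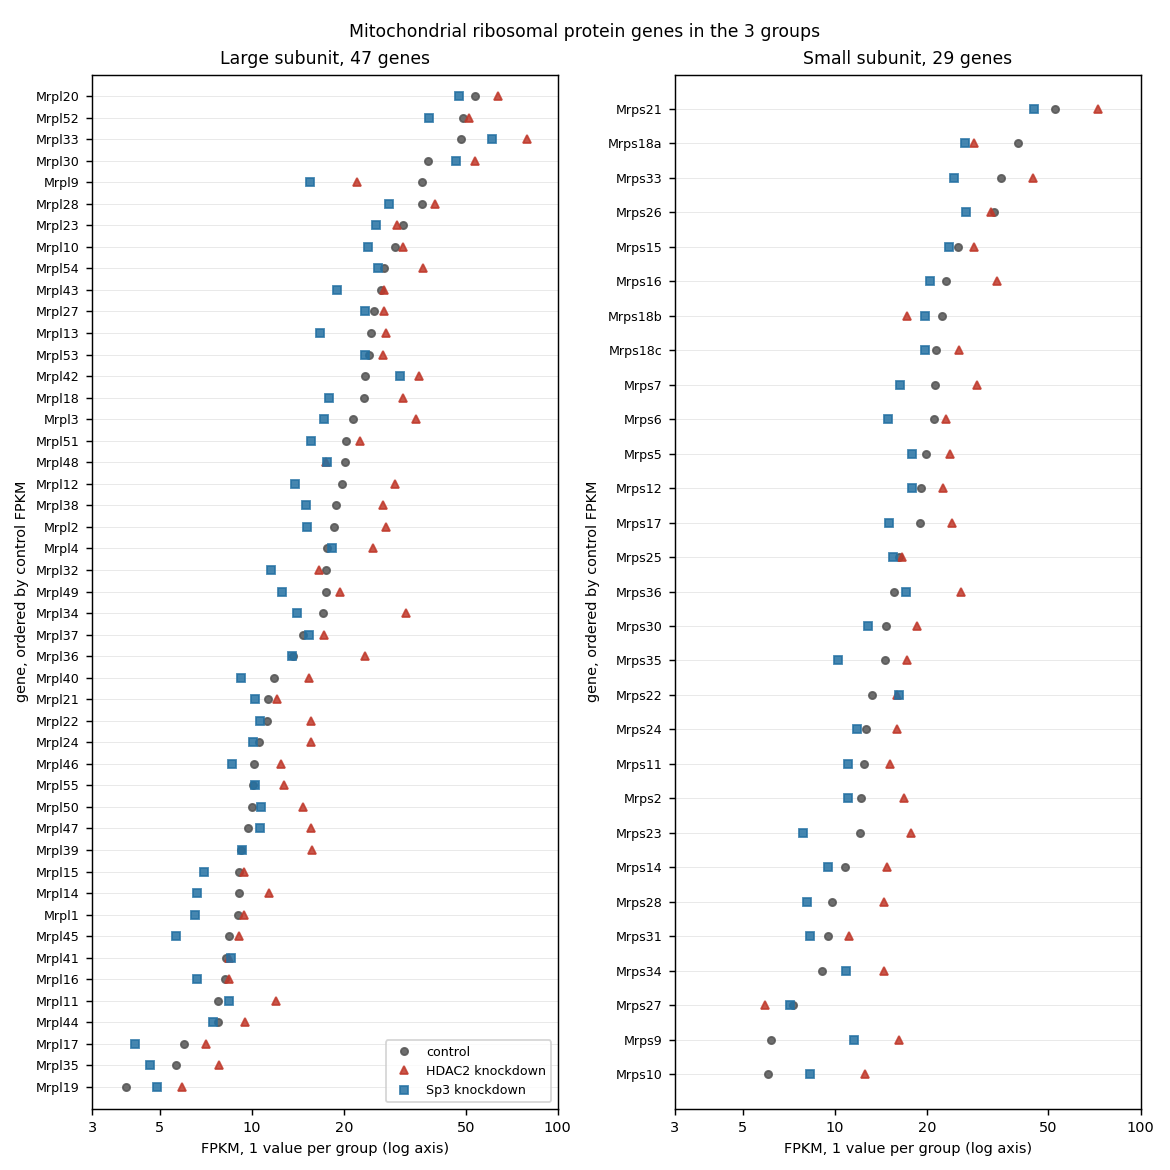
FPKM of each gene in control, HDAC2 knockdown and Sp3 knockdown, 1 point per group on a log axis, with genes ordered by control FPKM and the large and small subunits in separate panels. The genes span 13.9-fold in control, and 71 of 76 have a higher FPKM in HDAC2 than in Sp3 knockdown. The median of all genes of at least 1 FPKM itself moved by 0.32 in HDAC2 and -0.13 in Sp3 knockdown on the log2 scale. The count of 71 includes that move, and its share over all genes is not given here, so it is not read as a trait of the members. Their median difference between the knockdowns after centring was 0.057.

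In HDAC2 knockdown against control, 11 of the 76 genes rose and 1 fell, and 64 were not called. Among all tested genes 24.6% were called higher and 3.6% lower, so the share of members called higher, 14.5%, was below the background. The genes that rose were Mrps9, Mrps10, Mrpl34, Mrpl36, Mrpl39, Mrpl33, Mrps36, Mrpl3, Mrpl11, Mrpl19 and Mrpl12, and the gene that fell was Mrpl9. After centring 2 were higher (Mrps9 and Mrps10), 4 were lower (Mrpl9, Mrps18a, Mrps18b and Mrpl48) and 70 were not called, against a background of 10.2% higher and 7.59% lower. Their median log2 fold change was 0.31, the same to 2 decimals as over all tested genes.

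Mrps9 encodes a protein of the small-subunit head whose bacterial counterpart reaches towards the transfer RNA in the peptidyl site. The authors' deposited table lists it at 6.18 FPKM in control, 16.3 FPKM in HDAC2 knockdown and 11.5 FPKM in Sp3 knockdown. Both knockdowns were above control. Its log2 fold change in HDAC2 knockdown was 1.40 ± 0.27 (SE; q = 5.02e-06 in the authors' deposited table), the largest rise of the 76, and 1.08 after centring (adjusted p = 0.00103). The gene lies at chr1:42908077-42962528 in mm9.

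Mrps10 encodes another protein of the small-subunit head. In the authors' deposited table it had 6.03 FPKM in control, 12.6 FPKM in HDAC2 knockdown and 8.33 FPKM in Sp3 knockdown. The HDAC2 knockdown log2 fold change was 1.06 ± 0.22 (SE; q = 1.33e-05 in the authors' deposited table), or 0.75 centred (adjusted p = 0.00564). Mrps9 and Mrps10, the lowest small-subunit genes in control, were those that rose most here. Control FPKM enters the fold change itself, so the low control level and the rise are not separate observations.

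Among large-subunit genes the largest rise was that of Mrpl34, a small basic protein with a bacterial counterpart. It had 17.1 FPKM in control and 31.8 FPKM in HDAC2 knockdown per the authors' deposited table, a log2 fold change of 0.89 ± 0.26 (SE; q = 0.00328). Mrpl36, which also has a small bacterial counterpart, had 13.6 and 23.4 FPKM per the authors' deposited table (q = 0.0113). Mrpl39, found only in mitochondria, had 9.23 and 15.7 FPKM per the authors' deposited table (q = 0.00885). None of these 3 was called after centring, with adjusted p of 0.111, 0.228 and 0.219.

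Mrpl33 stood at 48.1 FPKM in control and 79.3 FPKM in HDAC2 knockdown per the authors' deposited table (q = 0.00775). Mrps36 had 15.7 and 25.8 FPKM per the authors' deposited table (q = 0.00686). Centred, neither was called, with adjusted p of 0.236 and 0.229. Mrpl11 and Mrpl12 belong with Mrpl10 to the stalk region of the large subunit, to which translation factors bind, and Mrpl12 also binds the mitochondrial RNA polymerase. The authors' deposited table gives Mrpl11 as 7.76 and 11.97 FPKM (q = 0.0301) and Mrpl12 as 19.7 and 29.3 FPKM (q = 0.0443). Mrpl10 was not called, at 29.4 FPKM in control and 31.3 FPKM in HDAC2 knockdown (q = 0.807 in the authors' deposited table). So within the stalk 2 of 3 genes rose on the deposited scale, and none was called after centring. Mrpl12 was the called gene nearest the threshold, and Mrpl47, with q = 0.0515 in the authors' deposited table, was the nearest not called.

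The fall was in Mrpl9, whose bacterial counterpart sits at the base of the L1 stalk near the exit site. The authors' deposited table lists it at 36.1 FPKM in control, 22.0 FPKM in HDAC2 knockdown and 15.5 FPKM in Sp3 knockdown. Both knockdowns were below control. In HDAC2 knockdown its log2 fold change was -0.71 ± 0.24 (SE; q = 0.0109 in the authors' deposited table), and -1.03 centred (adjusted p = 0.000196).

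The paralogs Mrps18a, Mrps18b and Mrps18c share descent from a single bacterial protein. Mrps18a had 39.9 FPKM in control, 28.5 FPKM in HDAC2 knockdown and 26.6 FPKM in Sp3 knockdown per the authors' deposited table. Mrps18b had 22.4, 17.2 and 19.7 FPKM in the same order in the authors' deposited table, and Mrps18c had 21.4, 25.5 and 19.7 FPKM. On the deposited scale none of the 3 was called in HDAC2 knockdown. Centred, with the errors of the authors' test, Mrps18a was at -0.80 (adjusted p = 0.00517) and Mrps18b at -0.70 (adjusted p = 0.0267), while Mrps18c was at -0.06 (adjusted p = 0.927). Mrpl48, at -0.52 centred (adjusted p = 0.0202), shares its locus with Rab6a, a gene listed at 135 FPKM in control against 20.1 FPKM for Mrpl48 in the authors' deposited table, and the counting of shared reads is not given in the sources used here.

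**Figure D2:**
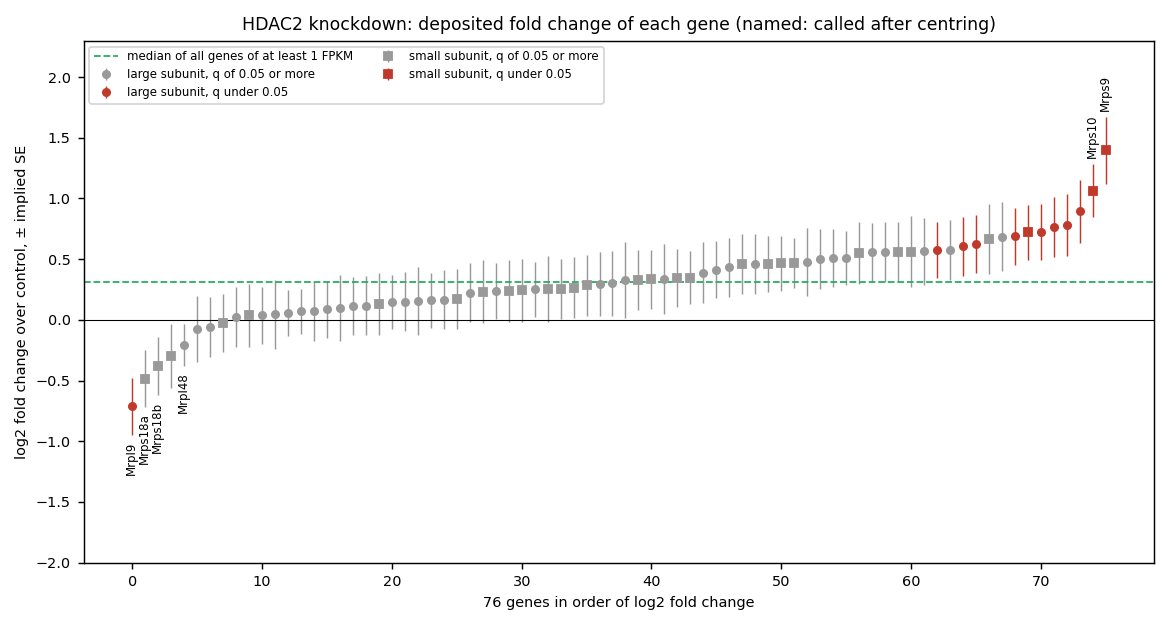
Deposited log2 fold change of each of the 76 genes in HDAC2 knockdown over control with its implied standard error, in rising order, with symbol shape for subunit, colour for call, and a dashed line at the median of all genes of at least 1 FPKM. Most genes lie near the dashed line at 0.32, and the named genes are those called after centring.

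To show the sequence at the start of the genes called in the same direction in both knockdowns after centring, the 250 bases before the RefSeq start site of Mrps9, Mrps10, Mrpl9 and Mrps18a are given here. They were picked after the values were seen. Sequences are from RefSeq on GRCm38.p6, on the given (+) strand at chr1:42850983-42851232, chr17:47368947-47369196, chr3:94443086-94443335 and chr17:46110754-46111003, in that order. That build differs from the mm9 of the expression tables. Capitals mark matches on either strand to GGGCGG (the GC box bound by the Sp family), GCGCATGC (part of the Nrf1 site), CCGGAAG (a core bound by Ets factors such as Gabpa) and AAGATGG (part of the Yy1 site).
Mrps9: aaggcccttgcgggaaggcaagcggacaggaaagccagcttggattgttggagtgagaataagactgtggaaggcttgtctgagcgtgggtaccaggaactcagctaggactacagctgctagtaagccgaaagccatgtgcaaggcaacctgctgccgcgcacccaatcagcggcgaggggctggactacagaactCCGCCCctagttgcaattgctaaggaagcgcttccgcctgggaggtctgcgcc
Mrps10: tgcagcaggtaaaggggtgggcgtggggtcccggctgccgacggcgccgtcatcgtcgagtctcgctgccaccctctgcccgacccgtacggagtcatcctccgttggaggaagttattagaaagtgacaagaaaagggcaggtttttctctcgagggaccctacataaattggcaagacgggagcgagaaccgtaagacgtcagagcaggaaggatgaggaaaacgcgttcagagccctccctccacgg
Mrpl9: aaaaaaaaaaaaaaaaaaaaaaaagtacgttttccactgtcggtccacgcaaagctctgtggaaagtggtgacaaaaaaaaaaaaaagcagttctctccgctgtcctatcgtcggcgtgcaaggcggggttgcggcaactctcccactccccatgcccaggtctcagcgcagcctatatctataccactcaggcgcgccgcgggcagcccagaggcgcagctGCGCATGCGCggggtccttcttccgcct
Mrps18a: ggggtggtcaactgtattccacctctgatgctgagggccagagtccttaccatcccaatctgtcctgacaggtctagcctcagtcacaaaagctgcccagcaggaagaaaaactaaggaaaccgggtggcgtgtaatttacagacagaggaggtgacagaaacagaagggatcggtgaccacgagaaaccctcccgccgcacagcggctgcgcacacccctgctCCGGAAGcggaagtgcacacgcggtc

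Mrps9 holds a GC box on the other strand, 53 bases before the start. Mrpl9 holds the Nrf1 letters on both strands, 28 and 26 bases before the start, and these matches overlap. Mrps18a holds the Ets core 26 bases before the start, and Mrps10 holds none of the 4 motifs in this window. For 67 of the 76 genes RefSeq promoters were at hand, 73 in all, each read from 250 bases before to 50 after the start. The GC box was in 52.1% of these, against 62.3% of promoters of tested genes and 35.7% of all promoters. The Ets core was in 32.9% (15.9% of tested and 8.86% of all promoters), the Yy1 letters in 17.8% (6.68% and 6.34%) and the Nrf1 letters in 11.0% (5.04% and 2.71%). These are descriptions of letters, with no test. For the counts that follow, all tested genes were called higher in 24.6% and lower in 3.6% in HDAC2 knockdown, and higher in 13.2% and lower in 26.1% in Sp3 knockdown. Of the 33 genes with a GC box, 2 rose and 12 fell in Sp3 knockdown, with a centred median of -0.10. Of the 34 without, 2 rose and 8 fell, with a centred median of -0.0088. In HDAC2 knockdown 2 of the genes with a GC box rose and none fell, and 8 of those without rose and 1 fell. The falls in Sp3 knockdown lie above the background share with a GC box and near it without. The rises in both knockdowns and the falls in HDAC2 knockdown lie below or near the background with and without a GC box. In Sp3 knockdown 9 of 24 genes with the Ets core fell, and 11 of 43 without. Falls were 4 of 8 with the Nrf1 letters and 16 of 59 without, and 4 of 13 with the Yy1 letters and 16 of 54 without. A larger share with than without is thus not particular to the GC box. The differences between genes with and without a motif were not tested. A match is not a bound site, and no binding was measured here.

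In Sp3 knockdown against control, 24 of the 76 genes fell and 5 rose, and 47 were not called. Across all tested genes 26.1% were called lower and 13.2% higher (39.3% either way), and the members' shares were 31.6% and 6.58%. After centring 11 were lower, 7 higher and 58 not called, against a background of 17.6% lower and 20.2% higher (37.8% either way). Their median log2 fold change was -0.19, beside -0.13 over all tested genes.

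Mrpl9 fell furthest, from 36.1 to 15.5 FPKM, a log2 fold change of -1.22 ± 0.12 (SE) in the authors' deposited table, where its q is listed at 0. Centred, with the authors' error, it was at -1.08 (adjusted p = 6.57e-18). Mrps23, a small-subunit protein found only in mitochondria, was at 12.1 FPKM in control, 17.8 FPKM in HDAC2 knockdown and 7.86 FPKM in Sp3 knockdown per the authors' deposited table. It is thus on opposite sides of control in the 2 knockdowns, although the HDAC2 value was not called (q = 0.0699 in the authors' deposited table). Its Sp3 knockdown log2 fold change was -0.62 ± 0.17 (SE; q = 0.00156 in the authors' deposited table), or -0.49 centred (adjusted p = 0.0133).

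Mrpl32, which is cut by a protease of the inner membrane before it joins the ribosome, went from 17.4 to 11.6 FPKM per the authors' deposited table (q = 0.00609), -0.46 centred (adjusted p = 0.0344). Mrps18a went from 39.9 to 26.6 FPKM (q = 2.43e-05 in the authors' deposited table), -0.45 centred (adjusted p = 0.00117). Mrpl45, which anchors the ribosome at the inner membrane, went from 8.39 to 5.62 FPKM (q = 0.000923 in the authors' deposited table), -0.44 centred (adjusted p = 0.0112). Mrpl13 went from 24.4 to 16.7 FPKM (q = 0.00283 in the authors' deposited table), -0.41 centred (adjusted p = 0.025). All 4 were thus lower on both scales.

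Of the stalk genes, Mrpl12 went from 19.7 to 13.8 FPKM (q = 0.0058 in the authors' deposited table) and was at -0.38 centred (adjusted p = 0.0437). Mrpl10 went from 29.4 to 24.0 FPKM (q = 0.0262 in the authors' deposited table) and was not called after centring (adjusted p = 0.252). Mrpl11 was not called, at 7.76 and 8.44 FPKM (q = 0.506 in the authors' deposited table). The remaining genes called lower after centring were Mrpl17, Mrps33, Mrpl43 and Mrpl49, at -0.34 to -0.40. Mrpl49 overlaps Syvn1, itself called lower in Sp3 knockdown (q = 5.99e-12 in the authors' deposited table), and Mrps6, called lower before centring, overlaps Slc5a3, which went from 11.9 to 5.53 FPKM per the authors' deposited table. How shared reads were split is not given in the sources used here, so these 2 are uncertain.

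The genes that rose were Mrps9, Mrpl42, Mrpl33, Mrpl19 and Mrpl30. Mrps9 had a log2 fold change of 0.90 ± 0.18 (SE; q = 8.28e-06 in the authors' deposited table), or 1.03 centred (adjusted p = 1.22e-07). Mrpl42 went from 23.5 to 30.4 FPKM (q = 0.0421 in the authors' deposited table), Mrpl33 from 48.1 to 60.9 FPKM (q = 0.0311) and Mrpl30 from 37.5 to 46.3 FPKM (q = 0.0278). Mrpl19, the lowest of all in control, went from 3.87 to 4.90 FPKM (q = 0.0388 in the authors' deposited table). All 5 were also called after centring with the authors' errors, joined by Mrps10 at 0.60 (adjusted p = 0.0199) and Mrps22 at 0.42 (adjusted p = 0.0171). Mrps22, a small-subunit protein linked to respiratory-chain disease in humans, had 13.3 FPKM in control, 15.9 FPKM in HDAC2 knockdown and 16.2 FPKM in Sp3 knockdown per the authors' deposited table. Nearest the threshold were Mrps26, called with q = 0.0472 in the authors' deposited table, and Mrpl52, not called with q = 0.0605.

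**Figure D3:**
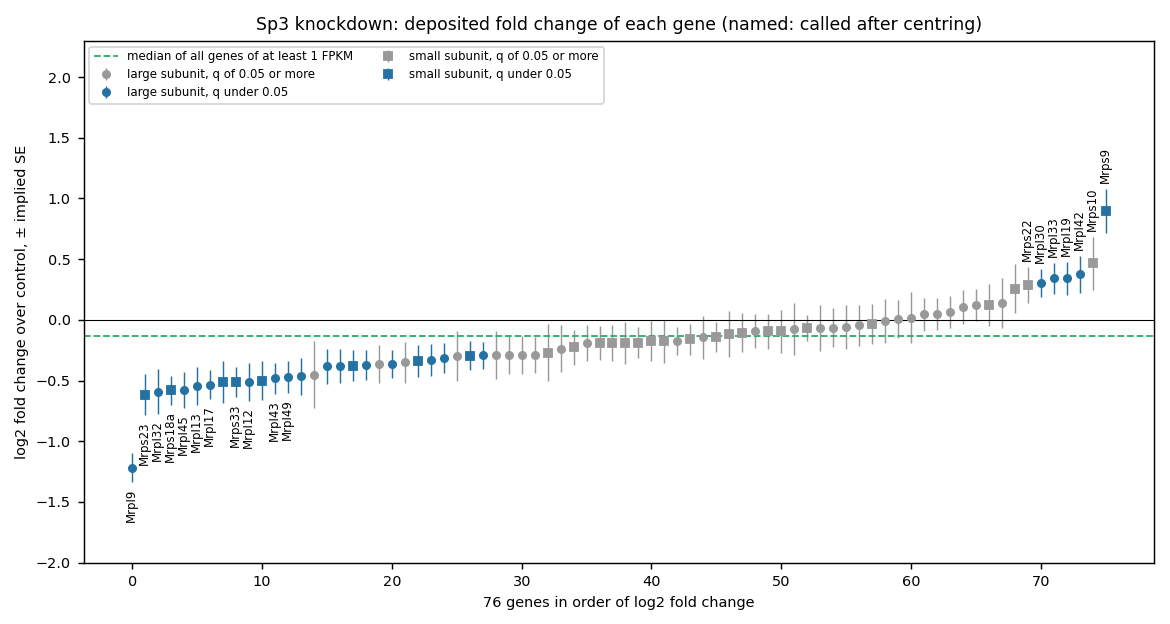
Deposited log2 fold change of each of the 76 genes in Sp3 knockdown over control with its implied standard error, in rising order, drawn as for HDAC2 knockdown with the dashed line at -0.13. Mrpl9 stands lowest at -1.22 and Mrps9 highest at 0.90. Above 0 lie 17 of the 76 genes, beside 5059 of 13619 tested genes, and 30 of the 76 lie above the dashed line.

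Other members linked to human disease or to roles outside peptide synthesis were mostly not called. Mrps12, at the decoding centre, had 19.1 FPKM in control, 22.6 FPKM in HDAC2 knockdown and 17.9 FPKM in Sp3 knockdown per the authors' deposited table. Mrps16 had 23.2, 34.0 and 20.5 FPKM there, Mrps2 12.2, 16.8 and 11.1 FPKM, Mrps34 9.11, 14.5 and 10.9 FPKM, and Mrpl44 7.73, 9.51 and 7.43 FPKM. Mrps30, linked to apoptosis, had 14.7, 18.5 and 12.9 FPKM per the authors' deposited table, and Mrpl41, likewise linked to apoptosis, had 8.25, 8.38 and 8.51 FPKM. None of these 7 was called in either comparison. Mrps7 had 21.2, 29.3 and 16.3 FPKM per the authors' deposited table and was called lower in Sp3 knockdown (q = 0.0131), but not after centring (adjusted p = 0.119). Nearest the median gene were Mrpl14 and Mrps24 in HDAC2 knockdown, each at 0.01 centred, and Mrpl21 and Mrps2 in Sp3 knockdown, each at -0.01.

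In HDAC2 knockdown 8 of 47 large-subunit genes rose and 1 fell, with a median log2 fold change of 0.30, and 3 of 29 small-subunit genes rose and none fell, with a median of 0.33. The large-minus-small difference of medians was -0.031. In Sp3 knockdown 4 large-subunit genes rose and 16 fell (34.0% lower, median -0.29), and 1 small-subunit gene rose and 8 fell (27.6% lower, median -0.18). That difference was -0.11. In HDAC2 knockdown all tested genes were called higher in 24.6% and lower in 3.6%. The shares called higher there, 17.0% of the large and 10.3% of the small subunit, are below that background. In Sp3 knockdown all tested genes were called higher in 13.2% and lower in 26.1%. The shares called higher there, 8.51% and 3.45%, are below the background, and the small-subunit share called lower is near it. After centring 8 large-subunit genes were lower and 4 higher in Sp3 knockdown, and 3 small-subunit genes were lower and 3 higher. The centred background was 17.6% lower and 20.2% higher, so the large-subunit share called lower was then near the background. Summed FPKM was 1.24 times control for the large and 1.22 times for the small subunit in HDAC2 knockdown, and 0.881 and 0.870 times in Sp3 knockdown. Members of a subunit share their libraries and are not replicates, so no test was made of these differences. With Mrps18a and Mrps30 counted as large and Mrps36 left out, the differences were -0.0073 and -0.11.

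The fold changes of the members were less spread than those of genes at large, and the middle 50% was also narrower in other large complexes. In HDAC2 knockdown 68 of 76 (89.5%) lay within 0.5 of the median gene on the log2 scale, against 68.6% of tested genes, and the middle 50% of members spanned 0.43 against 0.62. In Sp3 knockdown 72 of 76 (94.7%) lay within that range, against 73.5%, and the middle 50% spanned 0.33 against 0.57. Cytosolic ribosomal protein genes had narrower middle 50% spans of 0.19 and 0.20, with 89.7% and 94.9% within 0.5 of the median gene. Oxidative phosphorylation genes had spans of 0.24 and 0.29, with 87.8% and 90.1% within 0.5 of the median gene. By standard deviation both families were wider than the members, whose values were 0.33 and 0.31. Those of the cytosolic genes were 0.55 and 1.37, with a lowest log2 fold change of -12.3 in Sp3 knockdown. Those of the oxidative phosphorylation genes were 0.55 and 0.35. These are descriptions, since the members also have a higher median FPKM than tested genes, and its part in the narrower spread was not tested.

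**Figure D4:**
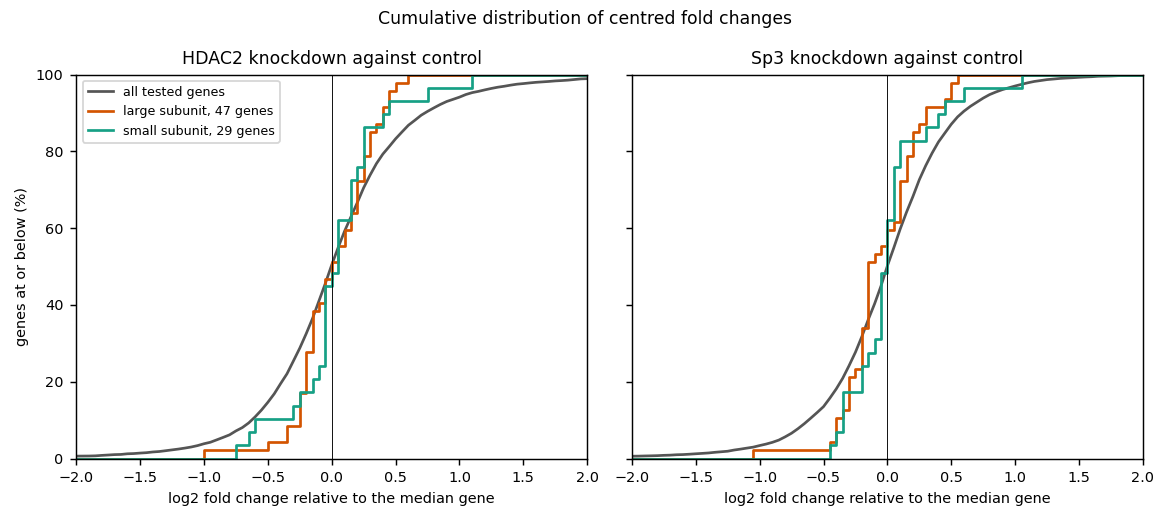
Cumulative percentage of genes at or below each centred log2 fold change, for all tested genes, large-subunit and small-subunit genes, in HDAC2 knockdown and in Sp3 knockdown. Both subunit curves are steeper than that of all genes, with 89.5% and 94.7% of members within 0.5 of the median gene.

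The difference between the knockdowns was tested per gene on the centred scale. No member differed at an adjusted p under 0.05 by the normal test, where 14.7% of all genes did (7.86% higher in HDAC2 and 6.87% higher in Sp3 knockdown), and 7 had an unadjusted p under 0.05. With a t distribution of 2 degrees of freedom the count was also 0. This test counts the error of the shared control in both folds and is conservative, and with that error divided by the root of 2 the count was 7. That division holds for errors of equal size in the 3 groups. The members' median standard error was 0.25 in HDAC2 and 0.15 in Sp3 knockdown, so the 7 is not a corrected count. Its share over all genes is not given here. With errors from the authors' statistics, the smallest p was that of Mrps23, higher in HDAC2 knockdown by 0.73 ± 0.30 (SE; p = 0.0153, adjusted p = 0.0869). By the authors' errors Mrps18b differed between HDAC2 and Sp3 knockdown by -0.64 ± 0.27 (adjusted p = 0.103), and Mrps27 by -0.71 ± 0.31 (adjusted p = 0.114). On the authors' errors Mrpl12 was higher by 0.64 ± 0.28 (adjusted p = 0.119) and Mrpl34 by 0.74 ± 0.33 (adjusted p = 0.12). None of these 5 passed the adjusted threshold in this conservative test. Without centring 17 members differed, and 71 of 76 had a higher FPKM in HDAC2 than in Sp3 knockdown. Both counts include the move of the median gene, by 0.32 in HDAC2 and -0.13 in Sp3 knockdown. Their shares over all genes are not given here, so they are not read as a trait of the members. Over all members the median centred difference was 0.057, beside -0.012 over all genes tested in both tables.

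Values in the 2 comparisons can be set side by side, bearing in mind that they share the control libraries. Mrps9 was at 1.08 and 1.03 centred in HDAC2 and Sp3 knockdown, Mrps10 at 0.75 and 0.60, Mrpl9 at -1.03 and -1.08, and Mrps18a at -0.80 and -0.45. For Mrps9 and Mrpl9 the difference between the knockdowns was 0.05, with standard errors of 0.33 and 0.26. Mrpl3, a large-subunit protein linked to human disease, was called in opposite directions, at 21.4 FPKM in control, 34.5 FPKM in HDAC2 knockdown (q = 0.0144) and 17.2 FPKM in Sp3 knockdown (q = 0.0395) in the authors' deposited table. Mrpl12 also was, with the values above, but the difference between knockdowns passed the adjusted threshold for neither.

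Genes that work with the mitochondrial ribosome were counted in lists taken whole. Their counts stand beside a background over all tested genes of 24.6% higher and 3.6% lower in HDAC2 knockdown, and 13.2% higher and 26.1% lower in Sp3 knockdown. Of 7 further ribosome proteins under other symbols, none was called in HDAC2 knockdown, and Aurkaip1 alone fell in Sp3 knockdown, from 31.9 to 25.1 FPKM (q = 0.0132 in the authors' deposited table), a call lost after centring (adjusted p = 0.141). Of 14 translation factors, 1 rose in HDAC2 knockdown, and 2 rose and 4 fell in Sp3 knockdown. The centred counts were 1 higher and 2 lower in HDAC2 knockdown, and 3 higher and 3 lower in Sp3 knockdown. Mtfmt and Gfm2 were called in HDAC2 knockdown only after centring, lower at -0.88 and -0.61. Guf1 was called in Sp3 knockdown only after centring, higher at 0.32. The rise in HDAC2 knockdown was in 1700021F05Rik, also named Mtres1, from 8.62 to 17.96 FPKM (q = 0.00119 by the authors' deposited table), and it was also called higher in Sp3 knockdown, with Mtrf1. Those that fell were Mtfmt, Gfm1, Gfm2 and Mtrf1l, of which Gfm1 was not called after centring (adjusted p of 0.0936). The largest fall was in Mtfmt, which formylates the initiator transfer RNA: it went from 13.2 to 6.22 FPKM in Sp3 knockdown, a log2 fold change of -1.08 ± 0.15 (SE; q = 2.51e-11 in the authors' deposited table). Mtfmt was at 8.93 FPKM in HDAC2 knockdown, not called on the deposited scale (q = 0.07 in the authors' deposited table) and lower after centring (adjusted p = 0.00441). Gfm2, which recycles ribosomes, went from 14.6 to 11.1 FPKM in Sp3 knockdown (q = 0.00134 in the authors' deposited table).

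Of 20 assembly and ribosomal RNA factors, 4 rose and none fell in HDAC2 knockdown, and 1 rose and 3 fell in Sp3 knockdown. The 20% that rose and the 15% that fell are below the background shares. The rises in HDAC2 knockdown were in Grsf1, Fastkd2, Rbfa and Gtpbp10, and in Sp3 knockdown Fastkd2 rose while Noa1, Mterfd2 and Tfb1m fell. The centred counts were 1 higher and 1 lower in HDAC2 knockdown, and 3 higher and 1 lower in Sp3 knockdown. Eral1 was called only after centring, lower in HDAC2 knockdown at -0.80. Dhx30 and Nsun4 were called only after centring, higher in Sp3 knockdown at 0.21 and 0.49. After centring Rbfa, Gtpbp10, Noa1 and Tfb1m were not called, with adjusted p of 0.245, 0.341, 0.0866 and 0.0646. Grsf1, an RNA-binding protein of mitochondrial RNA granules, went from 29.2 to 51.3 FPKM in HDAC2 knockdown (q = 4.94e-06 in the authors' deposited table) and stayed called after centring (adjusted p = 0.0142). Fastkd2, another granule protein, went from 6.82 to 12.5 FPKM (q = 0.0017 in the authors' deposited table), with an adjusted p of 0.092 after centring. In Sp3 knockdown Mterfd2, which takes part in large-subunit assembly, went from 3.58 to 2.33 FPKM (q = 0.00578 in the authors' deposited table). Of 12 genes of mitochondrial transcription and RNA upkeep, 2 rose and none fell in HDAC2 knockdown: Tfam, which packages mitochondrial DNA, from 6.30 to 9.53 FPKM (q = 0.0345 in the authors' deposited table), and Supv3l1, an RNA helicase, from 6.99 to 10.6 FPKM (q = 0.0475). Neither was called after centring, with adjusted p of 0.48 and 0.504, and 16.7% is below the background share. In Sp3 knockdown 1 fell, Tfb2m, a transcription initiation factor, from 8.35 to 4.67 FPKM (q = 1.48e-05 in the authors' deposited table). Supv3l1 was called in Sp3 knockdown only after centring, higher at 0.37.

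Of 13 nuclear regulators, 4 rose and none fell in HDAC2 knockdown, and 1 rose and 4 fell in Sp3 knockdown, the targeted Sp3 being counted in both. Higher in HDAC2 knockdown were Sp3, Ppargc1a, Myc and Esrra, and lower in Sp3 knockdown were Sp3, Gabpa, Gabpb2 and Sp1. Esrra and Sp1 were not called after centring, with adjusted p of 0.177 and 0.276. Ppargc1a, a coactivator of mitochondrial gene expression, had 4.06 FPKM in control, 8.11 FPKM in HDAC2 knockdown (q = 1.9e-09) and 6.78 FPKM in Sp3 knockdown (q = 5.9e-10) in the authors' deposited table. Gabpa, the Ets factor whose core is printed above, went from 10.4 to 6.88 FPKM in Sp3 knockdown (q = 2.83e-06 in the authors' deposited table) and was not called in HDAC2 knockdown, at 14.3 FPKM (q = 0.126). Myc went from 7.25 to 14.5 FPKM in HDAC2 knockdown (q = 3.65e-08 in the authors' deposited table).

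Beside the mitochondrial set, 11 of 78 cytosolic ribosomal protein genes rose in HDAC2 knockdown and 34 fell in Sp3 knockdown, with median log2 fold changes of 0.49 and -0.35. Of the oxidative phosphorylation subunit genes, 15 of 82 tested rose and 1 fell in HDAC2 knockdown (median 0.43), and 9 of 81 rose and 12 fell in Sp3 knockdown (median -0.06). In HDAC2 knockdown 14.1% of the cytosolic and 18.3% of the oxidative phosphorylation genes rose, below the 24.6% of all tested genes. In Sp3 knockdown 43.6% of the cytosolic genes fell, above the 26.1% of all tested genes, and 14.8% of the oxidative phosphorylation genes fell, below it. After centring 11 of the 78 cytosolic genes were lower and 1 higher there, against a background of 17.6% lower and 20.2% higher. Of the 81 oxidative phosphorylation genes 3 were then lower and 14 higher. The cytosolic share called lower was thus above the background on the deposited scale only. The members' medians, 0.31 and -0.19, lie below both families in HDAC2 knockdown and between them in Sp3 knockdown. No test of these differences was made.

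**Figure D5:**
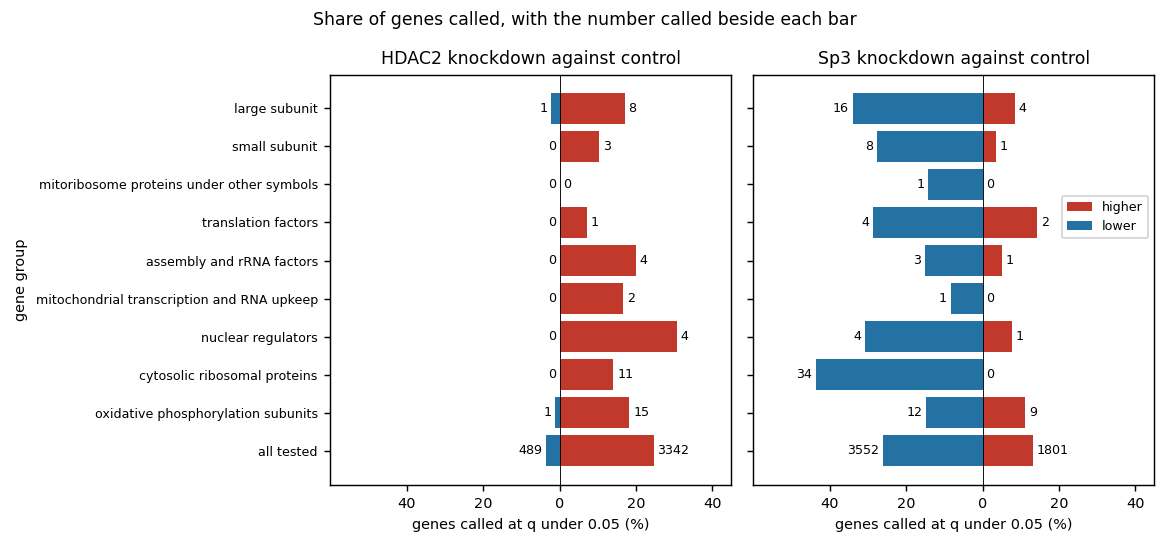
Percentage of tested genes called higher (right) and lower (left) at q under 0.05 in the authors' deposited tables for each gene group, with the number called beside each bar. In HDAC2 knockdown both subunits show fewer rises than the 24.6% of all tested genes, and in Sp3 knockdown the large subunit has 16 genes called lower (34.0%) and the small subunit 8 (27.6%), against 26.1% of all tested genes. After centring, which is not drawn, 8 large-subunit and 3 small-subunit genes were lower in Sp3 knockdown, against 17.6% of all tested genes.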

How the data were processed

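RNA-seq libraries of primary mouse neurons (2 control, 2 HDAC2 knockdown, 2 Sp3 knockdown) were analysed from 2 deposited tables, 1 per knockdown against control. Cuffdiff, Bowtie, TopHat and build mm9 are named by the submitters' processing notes. The sources used here give no versions, annotation, strand setting or handling of multiply mapped reads. Per the file headers, the authors gave each gene 1 FPKM per group, pooled over its libraries. The log2 fold change and the test statistic are scores deposited by the authors, where a fold against 0 is written as an extreme number. The p-value and q-value are those the authors deposited. The deposited statistic runs against the fold change in sign and was reversed. Normal p-values from it differed from those deposited by at most 2.79e-06.

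Computed here with Python 3.11.15, pandas 2.3.3, SciPy 1.17.1 and numpy 2.4.6 were the implied standard error, the centred fold change (centred on the median of tested genes of at least 1 FPKM in either group), its normal p with Benjamini-Hochberg adjustment over all genes of standard error at most 5, and the difference between knockdowns. Figures used matplotlib 3.10.9. The scripts were tested on simulated data. FPKM keeps no read count, so depth and counting precision are unknown.

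Members were found by symbol. Members and lists were chosen with earlier results of these data known. Named are the 6 largest called rises and falls and the 3 largest centred ones per comparison, the 4 highest and 3 lowest control levels per subunit, the 5 smallest p of the difference, those nearest the median gene, and genes of known role. Genes in lists are named by the 2 smallest q per comparison. Called genes outside this rule were named after their values were seen. Alternatives covered scaling, thresholds, adjustment, level filters, pseudocounts, overlapping genes and membership.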

Additional observations from a re-analysis of the deposited data

How the results depend on the processing

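Counts of called members depended on scaling. In HDAC2 knockdown the 11 higher and 1 lower became 2 and 4 after centring and 2 and 4 with upper-quartile scaling, and the median log2 fold change of 0.31 became -0.0013 and 0.0058. In Sp3 knockdown the 24 lower became 11 after centring and 17 with upper-quartile scaling, and the 5 higher became 7 under both. Stricter thresholds lowered the counts: at q under 0.01 HDAC2 knockdown had 6 higher and 0 lower, and Sp3 knockdown 1 higher and 14 lower, and with an absolute log2 fold change of at least 0.5 Sp3 knockdown had 1 higher and 11 lower. At q under 0.1 HDAC2 knockdown had 21 higher and 2 lower. With a t distribution of 2 degrees of freedom in place of the authors' normal test, no member was called in either comparison (0 higher and 0 lower in each). At an unadjusted p under 0.05 by that t test, 2 were higher and 0 lower in HDAC2 knockdown, and 1 was higher and 3 lower in Sp3 knockdown. The share of all genes at that unadjusted p is not given here. After adjustment, the setting at which no member was called, 81 and 73 of all genes passed in HDAC2 and Sp3 knockdown. For the difference between knockdowns, the count of 0 became 17 without centring, 1 at an adjusted p under 0.1, and 7 with the error divided by the root of 2. That last setting holds for errors of equal size in the 3 groups. The large-minus-small difference in HDAC2 knockdown changed sign to 0.0090 when proteins under other symbols were added. Recomputed adjustment, a minimum of 1 FPKM, leaving out overlapping genes or Mrps36 (the latter, like the reassigned subunits, chosen after seeing the data) kept each count of called members within 1.5 times.

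No paired analysis was possible because the tables hold 1 value per group and none per library. For the same reason the values without each replicate in turn were not run.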

Other observations

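Genes numbered as in bacteria (Mrpl1 to Mrpl36 and Mrps1 to Mrps21, 44 genes, a split made after the values were seen) and the 32 with higher numbers, most of them found only in mitochondria, had control medians of 19.0 and 13.95 FPKM. In HDAC2 knockdown 9 of the 44 were called higher and 1 lower, and 2 of the 32 higher and none lower, with median log2 fold changes of 0.34 and 0.30. In Sp3 knockdown 4 of the 44 were called higher and 15 lower, and 1 of the 32 higher and 9 lower, with medians of -0.21 and -0.15. All tested genes were called higher in 24.6% and lower in 3.6% in HDAC2 knockdown, and higher in 13.2% and lower in 26.1% in Sp3 knockdown, and the 28.1% of the 32 called lower there is near that share. Within the large subunit, the 28 genes numbered as in bacteria had 11 called lower in Sp3 knockdown (median -0.29), and the other 19 had 5 (median -0.06). After centring 5 of the 28 and 3 of the 19 were lower, against 17.6% of all tested genes. No test was made of these differences.

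Member genes are short: their median locus is 7765 bases, against 25741 bases over tested genes, and they lie on 17 chromosomes. Across the 76 genes, which share the same libraries, Spearman's rho between locus length and log2 fold change was -0.079 in HDAC2 knockdown and 0.10 in Sp3 knockdown. Between control FPKM and log2 fold change it was -0.24 in both, where control FPKM enters the fold change itself.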
